A study of Mus musculus with 17 samples.

Results

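Gpnmb and the 4 MiT/TFE transcription factors, Mitf, Tfeb, Tfe3 and Tfec, were examined in 13 polyA RNA-seq libraries of mouse macrophages. These 5 genes were taken by symbol from 24453 gene models, and each has 1 model. The set was selected on the RPKM level of Gpnmb in elicited macrophages, which is among the highest of any transcript, so levels there are a description with no test. Immortalised bone marrow-derived macrophages (iBMDMs) were a C57Bl/6EiJ line carrying mutant BRAF and Myc, at passage 3 to 8 and given vehicle only. They expressed Cas9 and EGFP, and received a lentivirus with 2 guides against Atf3 (Atf3KO), Jun (JunKO) or Jund (JunDKO), or served as scramble control (Scramble, zsGreen in the titles). The study's methods describe sorting for a transgene of the virus and no cloning step. Each of these 4 groups had 2 libraries. Thioglycollate-elicited macrophages (TGEMs) are primary cells that enter the mouse peritoneum after an irritant, and were taken from 8-week-old mice. Treatment was vehicle or Kdo2 lipid A (KLA), which activates TLR4, for 1 h. From C57Bl/6EiJ mice there was 1 library per treatment, and from Balb/cJ mice there were 1 of vehicle and 2 of KLA.

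MITF, TFEB, TFE3 and TFEC share a basic helix-loop-helix leucine zipper, bind E-box sequences as homodimers or as heterodimers with one another, and drive genes of lysosomes, autophagy and metabolism. When nutrients are plentiful, mTORC1 on the lysosome phosphorylates TFEB and TFE3 and holds them in the cytoplasm, and under starvation or lysosomal stress calcineurin and the loss of that phosphorylation let them enter the nucleus, so their mRNA level and their activity are separate quantities. TFEC is largely restricted to the myeloid lineage, and MITF and TFE3 act in osteoclasts. GPNMB (osteoactivin) is a transmembrane glycoprotein of lysosomes and the cell surface that ADAM10 can shed, a known target of MITF and TFE3, and a marker of lipid-laden and lysosomally stressed macrophages.

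Library depth, recovered from the steps of the deposited values, was 1553296 to 18444441 reads. All 9 macrophage markers were detected in both cell kinds, and the 6 melanocyte markers, a lineage in which Mitf and Gpnmb are also known, summed to at most 1.68 RPKM. TGEM libraries also held B cell markers (4 of 4 at 1 RPKM or more, summed level 10.1 to 23.9 RPKM), which summed to at most 0.488 RPKM in iBMDMs. Fibroblast markers likewise summed to 31.8 to 69.0 RPKM in TGEMs against at most 0.417 in iBMDMs, mast cell markers to 1.78 to 13.7 against at most 0.264, and mesothelial markers to 3.93 to 7.37 against 0. The part of such cells in the TGEM levels was not tested. TGEM libraries held 863 to 8676 reads of Xist although all are labelled male, and iBMDM libraries held at most 3. The Atf3KO libraries stood apart from the other iBMDMs, with 10425 and 10631 models detected against 11884 to 12533, and Atf3KO replicate 2 carries another date label. Atf3 mRNA was 154 and 169 RPKM in Atf3KO against 80.7 and 77.4 in Scramble, Jun was 26.2 and 20.5 in JunKO against 17.6 and 18.5, and Jund was 6.94 and 6.07 in JunDKO against 9.19 and 8.33. In Atf3KO, Jund was 22.6 and 83.0 RPKM and Jun 17.9 and 46.2, so the mRNA of more than the targeted gene differed there. Guide-made deletions need not lower mRNA, so these levels do not check the labels, and groups are called as labelled. The study checked its knockouts by western blotting, which was not analysed here. The study's methods speak of replicate experiments for some of its tests, and the sample labels do not give separate cultures, so p-values measure the spread between these libraries, which may be technical.

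The Gpnmb start site is shown because its promoter window held TGACTCA, letters that AP-1, the dimer that ATF3, JUN and JUND form, is known to bind. All coordinates are on GRCm38.p6 (mm10), and sequences are from RefSeq on that build. Gpnmb lies on chromosome 6 at 49036518 to 49058182, plus strand, with 11 exons. Windows from 250 bases before to 50 after a start were available for some RefSeq starts of these genes and not for all. The start of the Tfe3 model used here (7764041) lies in none of them. The available windows were searched on both strands for TGAGTCA (its reverse complement is TGACTCA), for TGACGTCA, the cAMP response element that ATF and JUN dimers also bind, and for E-box letters. These were CACGTG, the related motif CATGTG, both with a leading T (written TCACGTG for the former and then TCATGTG for the latter) and the motif GTCACGTG of lysosomal genes, so that the longer ones contain the shorter. The 10 windows of the 5 genes (Gpnmb 1, Mitf 3, Tfeb 3, Tfe3 2, Tfec 1) held 2 matches in all. TGACTCA lay at chr6:49036526-49036532, beginning at base 9 of the Gpnmb transcript and so in its first exon, and TGACGTCA at chr6:97991630-97991637 in a Mitf window, beginning 153 bases before that start. The Mitf model used here starts elsewhere, at 97807058, and the window of its own start (chr6:97806808-97807107) held no match. TGACTCA on either strand was in 5.20% of 32851 promoter windows, TGACGTCA in 1.79%, CACGTG in 7.15% and CATGTG in 14.2%. A match is a string of letters and no evidence of binding. The 250 bases before the start (chr6:49036268-49036517, plus strand) and a stretch of 30 bases around the match (chr6:49036515-49036544, plus strand, match in capitals) read as follows.
Gpnmb upstream: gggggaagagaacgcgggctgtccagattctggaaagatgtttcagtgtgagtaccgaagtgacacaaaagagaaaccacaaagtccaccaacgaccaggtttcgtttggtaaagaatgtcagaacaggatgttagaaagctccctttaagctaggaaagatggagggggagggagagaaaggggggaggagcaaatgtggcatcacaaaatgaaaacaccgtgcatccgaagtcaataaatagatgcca
Gpnmb TGACTCA match: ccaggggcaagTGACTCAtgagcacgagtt

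Gpnmb was the most abundant of the 5 in every library by a wide margin, and abundance set the 2 cell kinds apart. In vehicle-treated TGEMs it was 8434 RPKM (C57Bl/6EiJ) and 7308 RPKM (Balb/cJ), and after KLA it was 8351 RPKM in C57Bl/6EiJ and 6343 and 4669.6 RPKM in Balb/cJ. It ranked between place 2 and place 7 of all models in these 5 libraries, and took 2.39% to 3.798% of exonic reads. In iBMDMs it was 869 and 669 RPKM in Scramble libraries, 427 and 419 in those of Atf3KO, 634 and 517 in those of JunKO, and 1152 and 1015 in those of JunDKO, which is 0.188% to 0.532% of exonic reads. The mean over TGEM libraries was 7021 RPKM ± 1568 (SD, n = 5) against 713 ± 273 (SD, n = 8) in iBMDMs, a ratio of 9.85, and the lowest TGEM library stood 4.05 times above the highest iBMDM library. Every TGEM library was above every iBMDM library for 7.71% of 10929 models with a mean of 1 RPKM. Cell kind coincides with the dates and initials in the sample titles, and these cannot be told apart.

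Tfeb was the only factor that shared this separation. Its model (chromosome 17, 47785744 to 47792416, plus strand, 8 exons) covers the 3′ part of a RefSeq gene that starts at 47737037. It was 44.2 and 38.7 RPKM in C57Bl/6EiJ TGEMs (vehicle, KLA), 28.7 in the Balb/cJ vehicle library and 23.8 and 21.0 in the Balb/cJ KLA libraries. In iBMDMs it was 4.58 and 4.65 with the scramble virus, 9.85 and 14.2 for Atf3KO, 3.89 and 1.81 for JunKO, and 7.40 and 7.57 for JunDKO. The ratio of the means was 4.64, and the lowest TGEM library was 1.48 times the highest iBMDM library. Depth limits the iBMDM values. The JunKO replicate 2 value rests on 7 reads (exact 95% Poisson interval 0.726 to 3.72 RPKM, counting error only), and Scramble values rest on 20 and 18 reads.

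Tfe3 (chromosome X, 7764041 to 7775202, plus strand, 9 exons) was the most abundant factor in all 13 libraries. It was 47.0 and 40.8 RPKM for Scramble, 69.6 and 61.3 for Atf3KO, 38.5 and 33.7 for JunKO, and 51.9 and 42.0 for JunDKO. In TGEMs it was 46.8 and 46.3 in the vehicle libraries of C57Bl/6EiJ and Balb/cJ, 52.3 in C57Bl/6EiJ after KLA, and 110.1 and 67.7 in Balb/cJ after KLA. The vehicle TGEM values thus fell inside the iBMDM range, and the highest values were those of Balb/cJ after KLA and Atf3KO replicate 1.

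Mitf (chromosome 6, 97807058 to 98021358, plus strand, 10 exons), which RefSeq gives 17 transcripts, had much the same level in both cell kinds. It was 17.5 and 21.4 RPKM for Scramble, 20.05 and 16.5 for Atf3KO, 14.1 and 18.3 for JunKO, and 29.96 and 34.97 for JunDKO. In TGEMs it was 21.7 and 17.5 in C57Bl/6EiJ (vehicle, KLA), 19.8 in the Balb/cJ vehicle library and 21.2 and 13.6 in Balb/cJ after KLA. Only the 2 JunDKO libraries lay above all others. One model per gene cannot tell the melanocyte from the ubiquitous Mitf isoforms.

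Tfec (chromosome 6, 16833381 to 16898441, minus strand, 7 exons) was the least abundant factor in vehicle-treated TGEMs. It was 6.44 and 8.25 RPKM for Scramble, 13.5 and 10.1 for Atf3KO, 6.63 and 7.91 for JunKO, and 8.37 and 8.24 for JunDKO. Vehicle TGEMs held 9.46 (C57Bl/6EiJ) and 8.44 (Balb/cJ), inside the iBMDM range. KLA libraries held 14.9 in C57Bl/6EiJ and 60.2 and 22.8 in Balb/cJ, the 3 highest of all 13 values.

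**Figure D1:**
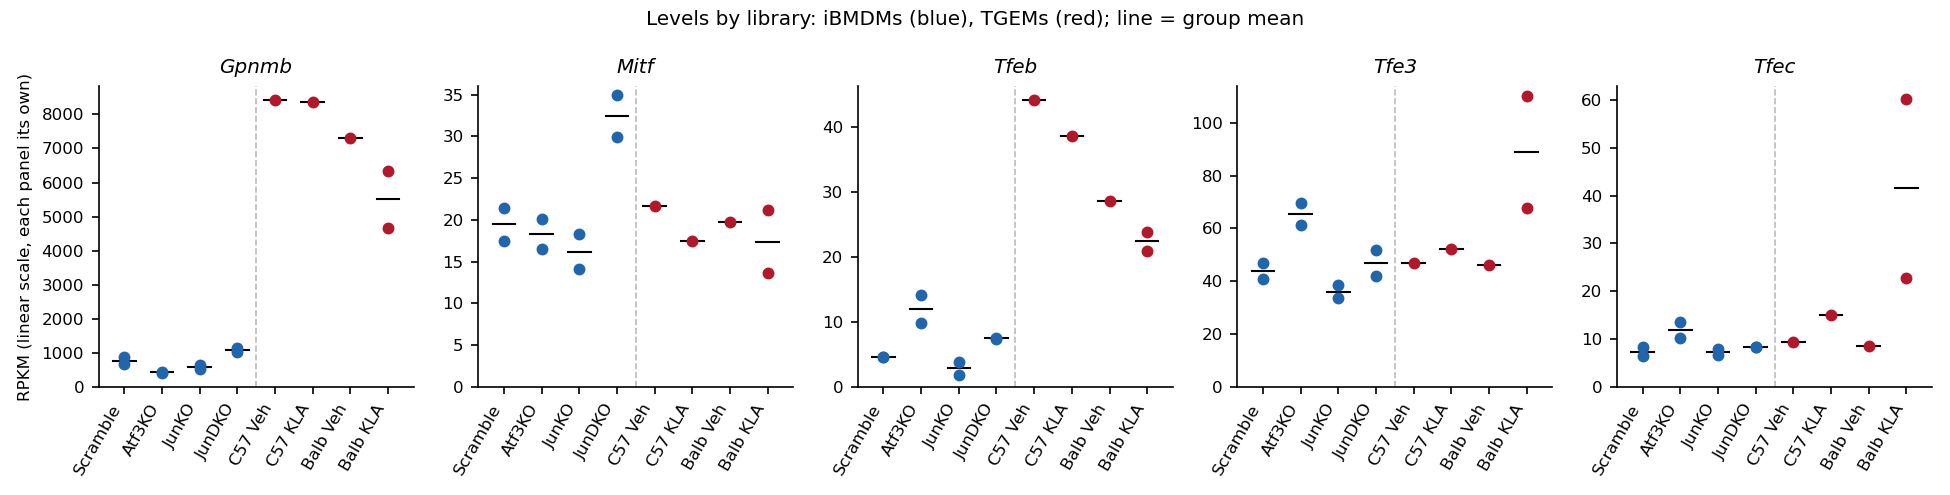
RPKM (linear axis from 0, each panel its own scale) of Gpnmb, Mitf, Tfeb, Tfe3 and Tfec in 8 iBMDM libraries (blue) and 5 TGEM libraries (red). Points are libraries and lines are group means, with Gpnmb and Tfeb higher in all 5 TGEM libraries than in any iBMDM library and Tfec highest in the KLA libraries.

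The 4 factors summed to 61.7 to 113 RPKM in iBMDMs and 103 to 215 RPKM in TGEMs. Tfe3 took 45.3% to 62.2% of the sum in iBMDMs and 38.3% to 54.2% in TGEMs. Tfeb took 2.93% to 13.9% in iBMDMs and 27.8% to 36.2% in the vehicle TGEMs and the C57Bl/6EiJ KLA library, but 11.1% and 16.8% in the Balb/cJ KLA libraries, where Tfec took 28.0% and 18.2%. Mitf was largest in JunDKO, at 30.7% and 37.7%.

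**Figure D2:**
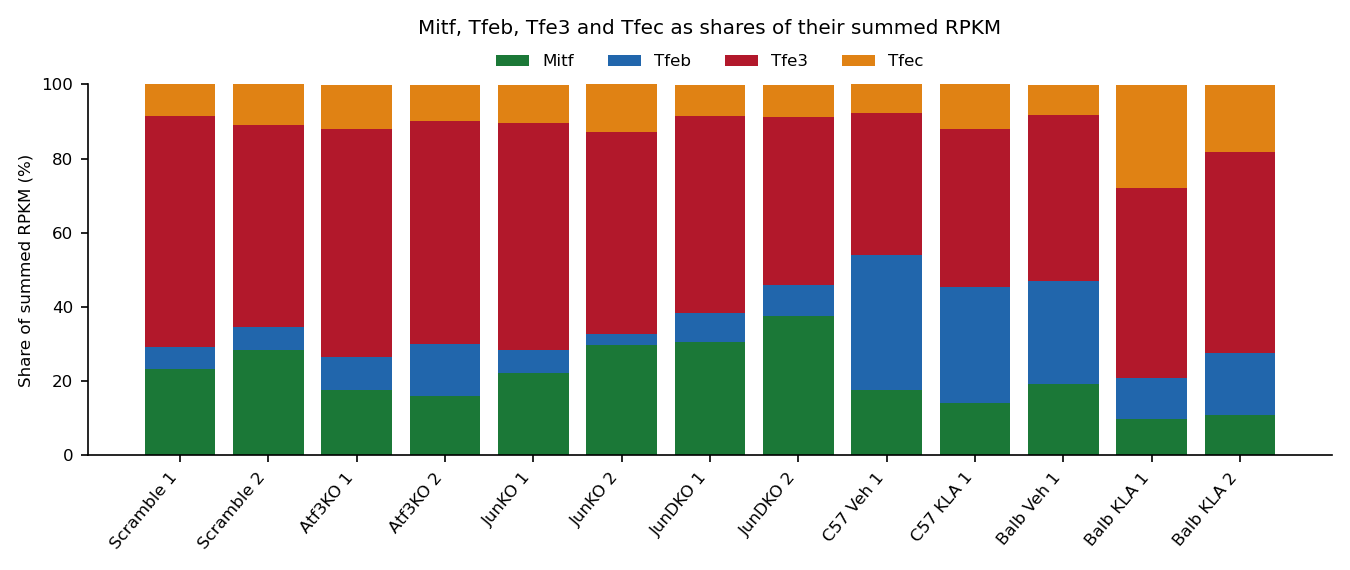
Mitf, Tfeb, Tfe3 and Tfec as percentages of their summed RPKM in each of the 13 libraries. Bars are libraries, with Tfe3 the largest part of each. The Tfeb part is 27.8% to 36.2% in the vehicle TGEMs and the C57Bl/6EiJ KLA library, 11.1% and 16.8% in the Balb/cJ KLA libraries and at most 13.9% in iBMDMs.

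The knockout comparisons ask which genes differ in cells targeted for 1 AP-1 monomer. log2(RPKM + 1) was compared with limma over the 8 iBMDM libraries, and an adjusted p is Benjamini-Hochberg over 10691 models with a mean of 1 RPKM, which all 5 genes passed. A gene is said to have risen or fallen at an adjusted p under 0.05, and to be called where it also changed 2-fold. Gpnmb fell in Atf3KO, from 769 RPKM ± 142 (SD, n = 2) to 423 ± 5.60, with both Atf3KO libraries below both Scramble libraries. Its log2 fold change was -0.85 ± 0.19 (SE, limma adjusted p = 0.0108), short of 2-fold. Without Scramble replicate 1 it was -0.66 (limma adjusted p = 0.0669), and it passed 2-fold without Scramble replicate 2 (-1.04, limma adjusted p = 0.0271) and at equal library medians (-1.09, limma adjusted p = 0.00280). In JunKO it was 575 RPKM ± 82.9 and in JunDKO 1083 ± 96.9, and both comparisons with Scramble missed the threshold, at -0.41 (95% interval -0.86 to 0.03, limma adjusted p = 0.689) and 0.50 (0.06 to 0.95, limma adjusted p = 0.138).

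The group order of Gpnmb was JunDKO, Scramble, JunKO and Atf3KO, and no neighbours in that order differed by the main test, although their libraries did not overlap. JunKO against Atf3KO gave 0.44 (95% interval -0.01 to 0.88, limma adjusted p = 0.111). At equal library medians that difference was 0.66 (limma adjusted p = 0.0241), the 1 of 20 alternatives in which it passed. Groups further apart differed. Gpnmb was called higher in JunDKO than in Atf3KO, by 1.35 ± 0.19 (SE, limma adjusted p = 0.00151), where 18.7% of all models were called higher, and that call held in 20 of 20 alternatives, with log2 fold changes of 1.26 to 1.90. It was also higher in JunDKO than in JunKO, by 0.92 ± 0.19 (limma adjusted p = 0.0256), which missed the threshold without any 1 of the 4 libraries of those groups, at 0.77 to 1.06 (limma adjusted p = 0.0853 to 0.208), and at equal library medians (0.64, limma adjusted p = 0.0736). As deposited, the median log2 fold change of all genes was 0.23 for both JunDKO against Scramble and JunDKO against JunKO, and at equal library medians the JunDKO difference of Gpnmb from Scramble was 0.21 (limma adjusted p = 0.561). With quantile normalization it was 0.93 (limma adjusted p = 0.0102), the 1 of 21 alternatives in which it passed.

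Among the factors, Tfeb rose in Atf3KO, from 4.61 RPKM ± 0.05 (SD, n = 2) to 12.0 ± 3.05, with a log2 fold change of 1.19 ± 0.30 (SE, limma adjusted p = 0.0159). It was called, and 7 of 20 alternatives lost that call, among them a pseudocount of 5, which put it under 2-fold (0.81). Both Atf3KO libraries lay above both Scramble libraries, and replicate 2, of the other date, was the higher. It missed the threshold without Atf3KO replicate 2 (0.95, limma adjusted p = 0.0925), without Scramble replicate 1 (1.18, limma adjusted p = 0.0664) and without Scramble replicate 2 (1.20, limma adjusted p = 0.0800). Tfe3 also rose in Atf3KO, by 0.57 ± 0.19 (SE, limma adjusted p = 0.0428), and passed in 7 of 20 alternatives, failing without any 1 of the 8 libraries (limma adjusted p = 0.0571 to 0.199). Tfec was 0.62 (95% interval 0.10 to 1.13, limma adjusted p = 0.0582) and Mitf -0.09 (-0.58 to 0.41, limma adjusted p = 0.767), a direction that 3 of 20 alternatives turned.

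GC content of the transcripts moved with these values. Across 10617 models the log2 fold change of Atf3KO against Scramble followed GC with Spearman's rho of 0.50, and Tfeb and Tfe3 are the members richest in GC (60.7% and 55.7%, against 49.6% for Gpnmb, 44.6% for Tfec and 43.4% for Mitf). After the GC trend of each library was removed, Gpnmb in Atf3KO was -0.79 (limma adjusted p = 0.00765), while Tfeb was 0.29 (limma adjusted p = 0.349), Tfe3 0.10 (limma adjusted p = 0.661), Tfec 1.04 (limma adjusted p = 0.00188) and Mitf 0.42 (limma adjusted p = 0.0365). Gpnmb kept its direction, and which factors passed depended on this step. Whether GC shapes these libraries technically was not tested.

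Mitf, a factor with a known role in melanocytes and osteoclasts, was highest in JunDKO, at 32.5 RPKM ± 3.54 (SD, n = 2) against 19.5 ± 2.77 in Scramble, 18.3 ± 2.52 in Atf3KO and 16.2 ± 2.99 in JunKO. Both JunDKO libraries lay above all 6 others. Against Scramble the difference was 0.71 (95% interval 0.22 to 1.21, limma adjusted p = 0.0723), which passed after GC correction (0.78, limma adjusted p = 0.00539) and by limma-voom on the recovered reads (0.76, limma adjusted p = 0.0365), and was 0.43 at equal library medians. Mitf was higher in JunDKO than in JunKO, by 0.97 ± 0.22 (SE, limma adjusted p = 0.0311), and than in Atf3KO, by 0.80 ± 0.22 (SE, limma adjusted p = 0.0198). The first missed the threshold without any 1 of the libraries of Scramble, JunKO or JunDKO (limma adjusted p = 0.0563 to 0.217) and at equal library medians (0.71, limma adjusted p = 0.119). The second missed it without Atf3KO replicate 2 (0.66, limma adjusted p = 0.0847), without JunDKO replicate 1 (0.91, limma adjusted p = 0.0615) or replicate 2 (0.69, limma adjusted p = 0.128), and after GC correction (0.35, limma adjusted p = 0.0635).

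No member passed in JunKO or in JunDKO against Scramble. In JunKO the differences of the factors ran from -0.60 for Tfeb (95% interval -1.30 to 0.09) to -0.01 for Tfec. In JunDKO they were 0.60 for Tfeb (-0.10 to 1.29), 0.17 for Tfec and 0.09 for Tfe3, and the last 2 turned negative at equal library medians. Tfeb was called lower in JunKO than in Atf3KO (log2 fold change -1.79 ± 0.30, SE, limma adjusted p = 0.00452), and passed the adjusted p in 20 of 20 alternatives, at -0.97 after GC correction. Tfec was -0.62 (limma adjusted p = 0.0611) and was called lower after GC correction (-1.01, limma adjusted p = 0.00297). Mitf was -0.17 (limma adjusted p = 0.558) and passed after GC correction (-0.64, limma adjusted p = 0.00964). Tfe3 fell in the same comparison by 0.84 on the log2 scale (limma adjusted p = 0.0120), but missed the threshold after GC correction (-0.42, limma adjusted p = 0.0956) and without JunKO replicate 2 (-0.75, limma adjusted p = 0.0809). Tfeb was called higher in JunDKO than in JunKO by 1.20 ± 0.30 (SE, limma adjusted p = 0.0498), a call that 16 of 21 alternatives lost, among them leaving out JunKO replicate 2 (0.80, limma adjusted p = 0.219).

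Of the 5 genes, 3 passed the adjusted p and 1 of them was called in Atf3KO, where 28.7% of all models tested were called and 41.2% passed the adjusted p, so the count is near the background. None passed in JunKO (0.281% of all models called) or in JunDKO (8.77% called, 11.7% past the adjusted p). For JunKO against Atf3KO 2 of 5 passed and 1 was called (35.5% and 24.1% of all models), for JunDKO against Atf3KO likewise 2 and 1 (40.7% and 28.6%), and for JunDKO against JunKO 3 and 1 (8.14% and 6.31%). These comparisons share their libraries.

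**Figure D3:**
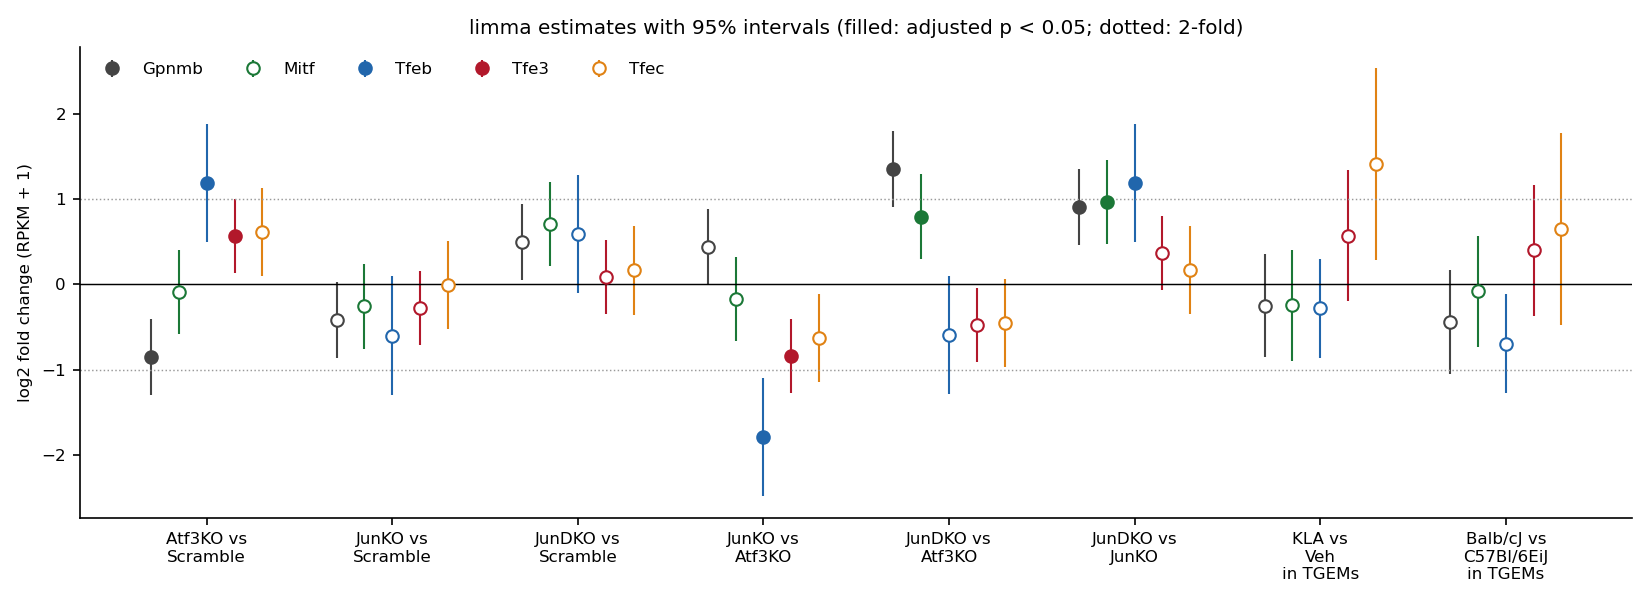
log2 fold change on the RPKM + 1 scale of the 5 genes in 8 comparisons, with limma 95% intervals. Filled points have an adjusted p under 0.05 and dotted lines mark 2-fold, with Gpnmb lower in Atf3KO than in Scramble and higher in JunDKO than in Atf3KO, and no filled point in the TGEM comparisons.

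Sdc4 and Itgav, whose products GPNMB is known to bind, were lower in Atf3KO than in Scramble. The list of such genes holds Adam10 and Adam17, which shed it, the receptors Sdc4, Cd44, Itga5, Itgb1 and Itgav, and the paralogue Pmel, which was too low to test. A further gene was taken out of it after its values were seen, so no count or median over the list is given. Sdc4, a heparan sulfate proteoglycan, was 46.0 and 60.02 RPKM in Scramble and 16.9 and 19.5 in Atf3KO (-1.48 ± 0.19, SE, limma adjusted p = 0.00124). Itgav, the integrin alpha-V chain, was 21.5 and 30.6 for Scramble, 11.2 and 9.52 for Atf3KO, 17.8 and 25.3 for JunKO, and 91.4 and 97.2 for JunDKO. It fell in Atf3KO (-1.23 ± 0.24, limma adjusted p = 0.00603, but -0.73 after GC correction, and -0.99 at a limma adjusted p of 0.0505 without Scramble replicate 2) and rose in JunDKO (1.84 ± 0.24, limma adjusted p = 0.00242), the latter call held in 21 of 21 alternatives. JunDKO exceeded Atf3KO in Itgav (3.07 ± 0.24, limma adjusted p = 0.000136) and Sdc4 (1.77 ± 0.19, limma adjusted p = 0.000468), and Sdc4 was also higher in JunKO than in Atf3KO (1.42 ± 0.19, limma adjusted p = 0.00199).

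Among osteoclast-type targets of MITF and TFE3, Ctsk was nearly absent in JunDKO and Mmp9 was highest in JunKO. Of 12 genes, 6 were measured well enough to test in iBMDMs, and Acp5 and Calcr, defining osteoclast genes, were at 0 in all 8 libraries. Ctsk, the collagen-degrading cathepsin K, was 98.8 and 95.1 RPKM for Scramble, 53.8 and 41.0 for Atf3KO, 94.0 and 80.1 for JunKO, and 0 and 1.21 (0 and 35 reads) for JunDKO. It was called lower in JunDKO in 21 of 21 alternatives (-6.04 ± 0.34, SE, limma adjusted p = 4.22e-05). The fall of Ctsk in Atf3KO (-1.03, limma adjusted p = 0.0429) was lost in 11 of 20, among them without any 1 library of Scramble, Atf3KO or JunKO (-1.22 to -0.84, limma adjusted p = 0.0669 to 0.196). Mmp9, a gelatinase, was 26.7 and 23.5 RPKM in JunKO and at most 4.25 in the other iBMDM libraries. It was called higher in JunKO (2.65 ± 0.31, limma adjusted p = 0.0215), and lower in JunDKO (-1.51, limma adjusted p = 0.0183) and in Atf3KO (-1.22, limma adjusted p = 0.0163). The first was lost in 11 of 21 alternatives, among them without any 1 library other than Scramble replicate 2 (limma adjusted p = 0.0539 to 0.139), the second without Scramble replicate 2 or either JunDKO library (limma adjusted p = 0.0857 to 0.133), and the third without Scramble replicate 2 or Atf3KO replicate 2 (limma adjusted p = 0.106 and 0.0818). Tnfrsf11a, the receptor RANK, was 30.2 and 35.01 RPKM in JunDKO and 8.85 to 18.5 in the other 6 iBMDM libraries. JunDKO exceeded Atf3KO (1.35 ± 0.33, limma adjusted p = 0.0133), a call lost without Atf3KO replicate 1 (0.93) or either JunDKO library (1.25 and 1.45, limma adjusted p = 0.0974 and 0.0597), and the difference from Scramble missed the threshold (1.04, 95% interval 0.29 to 1.80, limma adjusted p = 0.0809).

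Among lysosome and autophagy genes, the classic output of TFEB and TFE3, Sgsh was higher in both Atf3KO and JunDKO. Of 45 genes tested, 4 were called higher and 2 lower in Atf3KO, 0 in JunKO, and 4 higher and 1 lower in JunDKO (28.7%, 0.281% and 8.77% of all models called in either direction), with medians of 0.14, -0.04 and 0.14 against 0.05, 0.01 and 0.23 for all genes. In Atf3KO 1 gene was called without Scramble replicate 2, 3 without Atf3KO replicate 2 and 9 without Atf3KO replicate 1, and in JunDKO 3 and 2 without JunDKO replicate 1 or 2. Sgsh, a heparan sulfate sulfamidase, was 3.84 and 2.17 RPKM for Scramble, 16.4 and 17.8 for Atf3KO, and 20.4 and 13.7 for JunDKO. It rose in Atf3KO (2.21 ± 0.29, SE, limma adjusted p = 0.00140) and in JunDKO (2.18 ± 0.29, limma adjusted p = 0.00260), and neither call was lost in any alternative. Naglu, another heparan sulfate hydrolase, rose in Atf3KO (1.48, limma adjusted p = 0.0106, 0.68 after GC correction, lost without Scramble replicate 2 or Atf3KO replicate 2 at limma adjusted p = 0.0853 and 0.0696), and Ctsf, cathepsin F, rose in JunDKO (2.46 ± 0.40, limma adjusted p = 0.00657, lost without Scramble replicate 2 or either JunDKO library at limma adjusted p = 0.0548 to 0.0866). Hif1a, the hypoxia factor, fell in Atf3KO (-1.33, limma adjusted p = 0.00621, -0.41 after GC correction, -0.97 without Atf3KO replicate 2 and -1.23 at a limma adjusted p of 0.0519 without Scramble replicate 2). Sqstm1, the autophagy receptor p62, fell in JunDKO from 545 to 197 RPKM (-1.46 ± 0.22, limma adjusted p = 0.00422, but 0.0599 without JunDKO replicate 2). Atp6v0d2, a macrophage and osteoclast subunit of the proton pump, had 0 reads in both Atf3KO libraries, 4 and 8 in Scramble and 20 and 258 in JunDKO, where it was 5.17 and 5.61 RPKM.

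Of genes that accompany Gpnmb in lipid-laden macrophages, Cd36 and Apoe were lower in Atf3KO and Spp1 and Fabp4 in JunDKO. Of 16, 3 were called lower in Atf3KO (14.7% of all models) and 3 in JunDKO (3.97%), none was called higher, and none was called in JunKO. Over the alternatives 2 to 5 were called lower in Atf3KO (5 without Atf3KO replicate 1) and 1 to 5 in JunDKO (1 without JunDKO replicate 2, 2 without the other JunDKO library or either Scramble library). Cd36, a scavenger receptor for oxidised lipids, was 110.3 and 156 RPKM in Scramble and 12.3 and 8.29 in Atf3KO (-3.57 ± 0.24, SE, limma adjusted p = 0.00011, held in 20 of 20 alternatives), and 135 and 145 in JunDKO. Apoe, a lipid carrier, was 4.80 and 5.41 for Scramble, 0 and 0.582 (0 and 5 reads) for Atf3KO (-2.28 ± 0.39, limma adjusted p = 0.00382), 2.97 and 0.983 for JunKO, and 19.0 and 12.9 for JunDKO. Spp1, osteopontin, was 10342 and 8932 for Scramble, 6314 and 4407 for Atf3KO, 17020.4 and 15025 for JunKO, and 2767 and 2394 for JunDKO, a fall of 1.90 on the log2 scale in JunDKO (limma adjusted p = 0.00140, lost with no filter on low values and with quantile normalization). Fabp4, a fatty-acid binding protein, fell in JunDKO (-1.75 ± 0.33, limma adjusted p = 0.0117, lost without Scramble replicate 2 or either JunDKO library at limma adjusted p = 0.0592 to 0.123).

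Other E-box binding bHLH leucine-zipper factors were called higher in Atf3KO in 7 of 13 (14% of all models), with none lower and a median of 1.33, and in 2 of 13 in JunDKO (4.81%). Without Scramble replicate 2 these counts were 4 and 0, and without either JunDKO library 0 were called in JunDKO. Srebf2, the regulator of sterol synthesis, was 13.6 and 9.89 RPKM for Scramble, 41.1 and 69.4 for Atf3KO, and 36.1 and 30.8 for JunDKO. It rose in Atf3KO (2.11 ± 0.34, SE, limma adjusted p = 0.00275, 1.46 after GC correction) and in JunDKO (1.45 ± 0.34, limma adjusted p = 0.0285, lost in 6 of 21 alternatives, among them without any 1 Scramble or JunDKO library at limma adjusted p = 0.0788 to 0.195). Usf2, a ubiquitous E-box factor, rose in Atf3KO (1.97 ± 0.38, limma adjusted p = 0.00564, but 0.0521 without Scramble replicate 2), and Mxd4, a MYC antagonist, in JunDKO (1.47, limma adjusted p = 0.0348, lost in 10 of 21, among them without any 1 library other than Scramble replicate 1, at limma adjusted p = 0.0537 to 0.240). After GC correction 4 of 13 were called in Atf3KO, with a median of 0.69. Among 24 genes of the mTORC1, folliculin and calcineurin arms that control where these factors lie in the cell, 1 was called higher and 1 lower in Atf3KO (28.7% of all models called in either direction, and 5 of the 24 without Atf3KO replicate 1) and 1 higher in JunDKO (8.77% in either direction). These were Lamtor1, of the Ragulator complex (1.12, limma adjusted p = 0.00900), Ppp3cb, a calcineurin catalytic subunit (-1.31, limma adjusted p = 0.00371), both under 2-fold after GC correction and Lamtor1 also without Scramble replicate 2 (0.88, limma adjusted p = 0.0717), and Rragb, a Rag GTPase at 3.69 and 3.54 RPKM in JunDKO against 0.457 and 0.515 in Scramble (1.63, limma adjusted p = 0.0339, lost in 7 of 17 alternatives, among them without either Scramble library or Atf3KO replicate 1, at limma adjusted p = 0.0504 to 0.120).

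**Figure D4:**
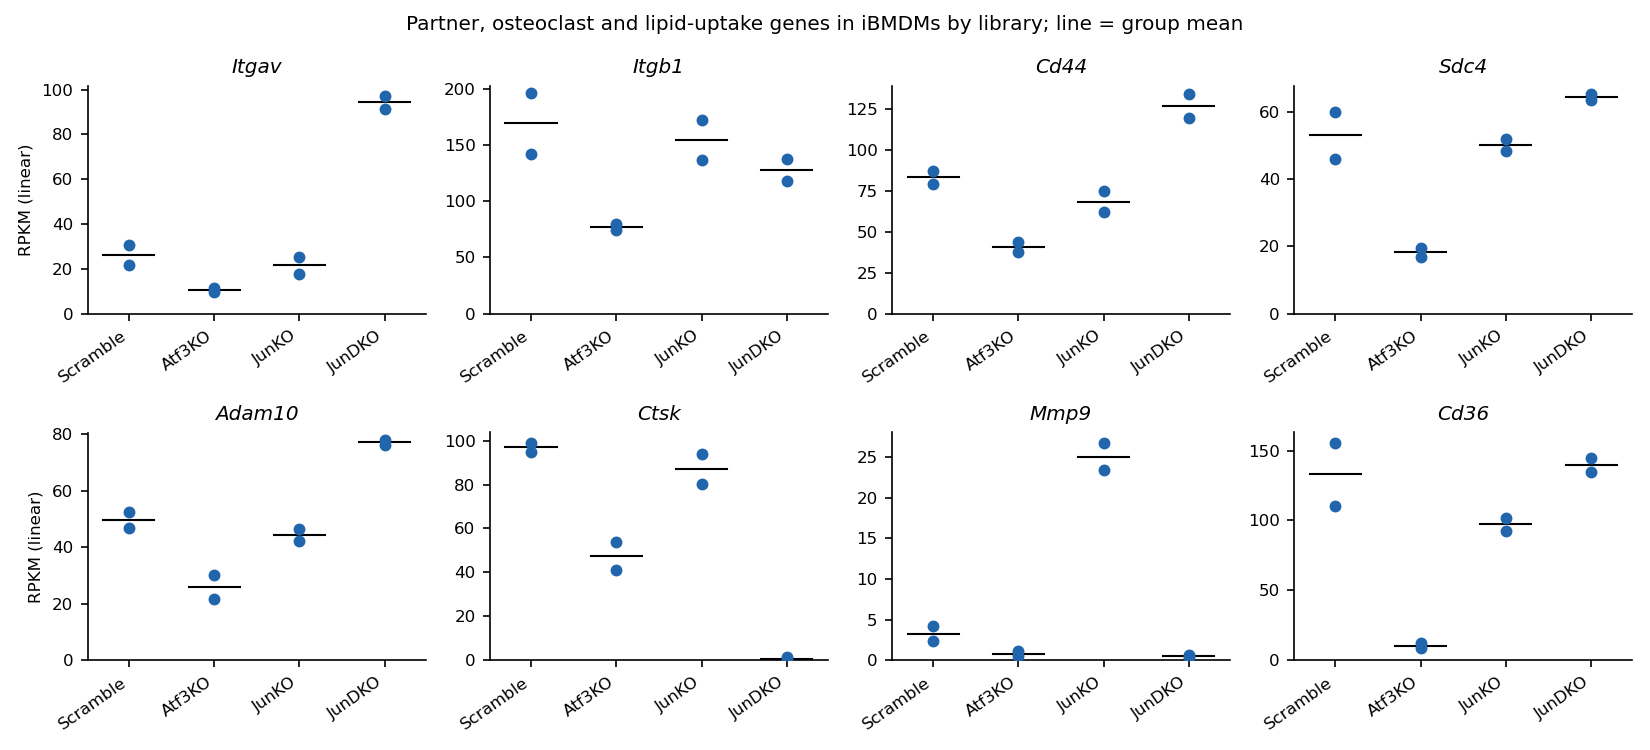
RPKM (linear axis from 0) of 5 GPNMB partner genes, the osteoclast-type genes Ctsk and Mmp9, and Cd36 in the 8 iBMDM libraries. Points are libraries and lines are group means, with Itgav highest and Ctsk lowest in JunDKO, Mmp9 highest in JunKO and Cd36 lowest in Atf3KO.

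KLA for 1 h asks for the early TLR4 response of TGEMs. Treatment and strain were fitted over 5 libraries, leaving 2 residual degrees of freedom, and 0 of 5 members passed (158 of 10357 models, 1.53%, were called). The largest difference among the members was that of Tfec, 1.41 ± 0.48 (SE, 95% interval 0.28 to 2.54, limma adjusted p = 0.257), with the 3 KLA libraries above both vehicle libraries. It was 0.61 without the Balb/cJ vehicle library, 0.97 without Balb/cJ KLA replicate 1 and 2.01 without either C57Bl/6EiJ library. Within the C57Bl/6EiJ pair of 1 date, Tfec was 1.58 times the vehicle value (14.9 against 9.46 RPKM, 86 and 191 reads), and within the Balb/cJ pair of 1 date it was 7.13 times (60.2 against 8.44 RPKM, 1838 and 35 reads). A rise at least as large as Tfec showed was found in 5.69% and 1.29% of models in these pairs. The second Balb/cJ KLA library, of another date with no vehicle of its own, held 22.8. Tfe3 was 1.12 and 2.38 times its vehicle value in the same pairs (0.57, 95% interval -0.19 to 1.34, limma adjusted p = 0.444). Tfeb was 0.876 and 0.831 times, Gpnmb 0.990 and 0.868 times, and Mitf 0.808 and 1.07 times. The Balb/cJ KLA group, the only TGEM group with 2 libraries, spanned 2.65-fold in Tfec, 1.63-fold in Tfe3, 1.14-fold in Tfeb, 1.36-fold in Gpnmb and 1.56-fold in Mitf.

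A difference between strains in the KLA response was tested as an interaction. For Tfec the Balb/cJ effect exceeded the C57Bl/6EiJ effect by 1.41 ± 0.96 (SE, limma adjusted p = 0.775 over the 5 TGEM libraries), and by 1.41 ± 0.73 (limma adjusted p = 0.568) with the spread of all 13 libraries. KLA called Sdc4 higher (from 26.3 to 173 RPKM in C57Bl/6EiJ, from 11.0 to 444 and 267 in Balb/cJ, 3.92 ± 0.50, SE, limma adjusted p = 0.0104), and of 13 E-box factors 1, Myc (2.48 ± 0.26, limma adjusted p = 0.00407). Both calls were lost without the Balb/cJ vehicle library (2.67 and 2.77, limma adjusted p = 0.263 and 0.122), Sdc4 also without Balb/cJ KLA replicate 1 (3.58, limma adjusted p = 0.0604), and Myc without either C57Bl/6EiJ library (2.27, limma adjusted p = 0.0513 and 0.0568). None of 45 lysosome genes, 24 upstream genes, 9 osteoclast-type genes or 16 lipid-laden genes was called.

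Between strains, 0 of 5 members passed, where 2.31% of models were called. Tfeb was 41.5 RPKM ± 3.89 (SD, n = 2) in C57Bl/6EiJ against 24.5 ± 3.90 (SD, n = 3) in Balb/cJ, with no overlap, and the difference was -0.70 (95% interval -1.28 to -0.12, limma adjusted p = 0.171). The strain difference followed the GC content of transcripts, with Spearman's rho of -0.45 across 10286 models, and after GC correction Tfeb was -0.22 (limma adjusted p = 0.691). Gpnmb was 8392 RPKM ± 58.9 against 6107 ± 1335 (-0.44, 95% interval -1.05 to 0.17, limma adjusted p = 0.363). The osteoclast-type list had 4 of 9 called lower in Balb/cJ and none higher, where 1.45% of all models were called lower. Over the alternatives 0 to 6 were called lower, with 0 without Balb/cJ KLA replicate 1, the Balb/cJ vehicle or the C57Bl/6EiJ vehicle library, and 1 without the C57Bl/6EiJ KLA library. Acp5, tartrate-resistant acid phosphatase, was 270 and 343 RPKM in C57Bl/6EiJ and 31.7, 82.4 and 102 in Balb/cJ (-2.39 ± 0.34, SE, limma adjusted p = 0.0179), and Itgb3, the integrin beta-3 chain, was 19.6 and 15.7 against 3.04, 4.95 and 4.64 (-1.88 ± 0.27, limma adjusted p = 0.0196). Both calls were lost in 5 of 16 alternatives, among them leaving out the C57Bl/6EiJ vehicle library, the Balb/cJ vehicle library or Balb/cJ KLA replicate 1, and for Itgb3 also the C57Bl/6EiJ KLA library (limma adjusted p = 0.0513 to 0.209 over these). None of 16 lipid-laden genes or 13 E-box factors was called. Of 45 lysosome genes 1 was called, and of 24 upstream genes 1, where 2.31% of all models were called in either direction. These were Sgsh, higher in Balb/cJ (1.46, limma adjusted p = 0.0422), and Csf1r, the M-CSF receptor, lower (-1.37, limma adjusted p = 0.0483). The first was lost without any 1 library other than Balb/cJ KLA replicate 2 (limma adjusted p = 0.126 to 0.302), and the second without any 1 of the 5 (limma adjusted p = 0.0550 to 0.317). Strain coincides with date, and only Balb/cJ reads were aligned to a strain genome, so these cannot be told apart. In bulk samples fewer cells of a type and less RNA per cell cannot be told apart either.

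The genes whose log2 level was most like that of Gpnmb over the 13 libraries were Apoe (Pearson's r = 0.99), Ifi30 (0.99), Atp6v0d2 (0.99), Epas1 (0.99) and Pacs2 (0.99), among 3965 models with a mean of 16 RPKM. These libraries form 2 clusters by cell kind, so such an r mostly gives the gap between them. Atp6v0d2, a subunit of the lysosomal proton pump, was 563 RPKM on average in TGEMs and 1.77 in iBMDMs, and Apoe was 3575 and 5.83. Within the 8 iBMDM libraries the most like were Sin3b (0.98), Slc23a2 (0.97), Tns3 (0.97), Slu7 (0.97) and Vav1 (0.97), among 4200 models. Over the 13 libraries the leading genes for Tfeb were Psen2 (0.98), Zmiz1 (0.97) and Dnase2a (0.97), for Tfec Bcl2l11 (0.94), H3f3b (0.92) and Btg1 (0.92), for Tfe3 Brd2 (0.93), Bcl2l11 (0.85) and Usb1 (0.85), and for Mitf Asap1 (0.85), Larp4b (0.84) and Atxn10 (0.84). Within iBMDMs, the level of Gpnmb had r of 0.67 with Mitf, -0.13 with Tfeb, -0.30 with Tfe3 and -0.56 with Tfec. The libraries fall into groups and differ in date and depth, so these values are descriptions.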

How the data were processed

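PolyA RNA-seq values came as 1 table of RPKM that the authors deposited, made with HOMER analyzeRepeats over the exons of condensed gene models after alignment with STAR to mm10 or, in the case of Balb/cJ, to its own strain genome (versions not given in the sources used here). The 4 GRO-seq samples of the 17 were not analysed here. RPKM times exonic length moves in steps of 1 read, which gave each library's depth and reads. Of values up to 50 reads 100% were whole in every library, within a set tolerance that covers the rounding of the deposited values. Models averaging 1 RPKM or more in the libraries of a fit were kept, and their log2(RPKM + 1) was compared with limma-trend 3.58.1 in R 4.3.3, in 8 iBMDM libraries (4 groups) and in 5 TGEM libraries (treatment and strain). Fold changes on this scale understate changes of low genes. P-values were two-sided. Alternatives changed the pseudocount (0.1 or 5), the filter (none, or 4 RPKM), scaling, GC correction (spline with 5 degrees of freedom), limma-voom on recovered reads, a call that needs 16 RPKM, the fit and the libraries. The members and lists were chosen with earlier results of these data known. A gene of the GPNMB partner list is not reported here and was taken out of that list after its values were seen, so no count or median over that list is given. Genes named were, besides the members, Atf3, Jun and Jund, up to 2 called genes in each direction per list with the largest fold change in the main comparisons, and the genes most correlated with a member. Of genes that only a comparison between knockouts named, Tnfrsf11a is given, while Mcoln1, Mlx, Max and others are left out. Fits without Atf3KO, the interaction and the search for TGACGTCA were added after seeing the data, as was the mention of Cd36, Apoe, Mmp9, Ctsk, Atp6v0d2 and Sgsh outside the comparison that named them. Intervals of reads are exact Poisson and cover counting error only. The fit was tested on simulated data. Python 3.11.15 was used for the tables. Sequences were taken from RefSeq on GRCm38.p6, and protein sequences were not used here.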

Additional observations from a re-analysis of the deposited data

How the results depend on the processing

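Of the members' values over the alternatives, 692 kept direction and side of the threshold, 55 fell short of it, 12 newly passed and 21 reversed. Each library was left out in turn. The cause of the changes was not tested unless the setting itself gives it. Replicate numbers were not taken to pair the libraries, since same-numbered libraries deviated with r of -0.21 to 0.22 over pairs of groups, 0.18 to 0.22 among Scramble, JunKO and JunDKO and negative for every pair that holds Atf3KO. The replicate block took calls in JunKO against Scramble from 30 to 14 and Tfeb in JunDKO against JunKO to an adjusted p of 0.0834 by limma. The counts of called genes were sensitive to the pseudocount and minimum level. At a pseudocount of 5 they were 1397 in Atf3KO (3068 as reported), 534 in JunDKO (938), 1089 for JunKO against Atf3KO (2577), 1475 for JunDKO against Atf3KO (3057), 384 for JunDKO against JunKO (675) and 134 between strains (239). Where a call needed 16 RPKM they were 1339, 531, 1038, 1307, 374 and 120. In JunKO they were 9 at a pseudocount of 0.1, 80 after GC correction, 18 with all 13 libraries in 1 fit, and 14 with only the 2 groups. For KLA (158) they were 57 with no filter, 310 by limma-voom, 362 with 13 libraries, 84 without the strain term and 71 with date for strain, and between strains 44, 584, 728 and, without the treatment term, 90. Members past the adjusted p in JunDKO against Scramble were 0, but 1 with quantile normalization, 1 after GC correction and 1 by limma-voom. For JunKO against Atf3KO they were 2, and 1 with only those groups fitted. In that comparison Mitf and Tfec passed and Tfe3 did not after GC correction (limma adjusted p = 0.00964, 0.00297 and 0.0956). At equal library medians Gpnmb passed there beside Tfeb and Tfe3 (limma adjusted p = 0.0241 for Gpnmb). Members past the adjusted p for JunDKO against Atf3KO were 2, and 4 by limma-voom. For JunDKO against JunKO they were 3, and 1 with no filter, 0 at equal library medians and 1 with quantile normalization. Equal library medians also moved the share of higher genes among calls from 48.8% to 32.9% in Atf3KO and from 54.8% to 31.5% in JunDKO. Leaving out 1 library gave 1943 to 3362 calls and 0 to 2 members in Atf3KO, 13 to 27 and 0 to 0 in JunKO, 409 to 959 and 0 to 0 in JunDKO, 1479 to 2853 and 1 to 2 for JunKO against Atf3KO, 2036 to 3287 and 1 to 2 for JunDKO against Atf3KO, 228 to 709 and 0 to 2 for JunDKO against JunKO, 28 to 149 and 0 to 0 for KLA, and 32 to 397 and 0 to 0 between strains. A value that reversed was counted as reversed even where it passed, as Mitf in Atf3KO did after GC correction (limma adjusted p = 0.0365). All reversals were of differences that had not passed as first reported. They were Mitf in Atf3KO (0.42 after GC correction, -0.23 to 0.050 without 1 library), Tfec in JunKO (0.024 after GC correction, -0.17 to 0.15), Tfe3 in JunDKO (-0.20 at equal medians, -0.016 with quantile normalization, -0.059 to 0.24), Tfec in JunDKO (-0.096 and -0.087 with these), Mitf in JunKO against Atf3KO (0.042 at equal medians, -0.35 to 0.0087), Tfeb in JunDKO against Atf3KO (0.19 after GC correction), Tfec in JunDKO against JunKO (-0.067 at equal medians, -0.060 with quantile normalization), and between strains Mitf (0.0068 at equal medians, -0.24 to 0.066), Tfe3 (-0.015 to 0.71) and Tfec (-0.15 to 1.26). Depth limits Tfeb and Tfec in iBMDMs most.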
